A study of Arabidopsis thaliana with 44 samples.

Results

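PRL (PROLIFERA, AT4G02060) encodes MCM7, a subunit of the MCM helicase that unwinds DNA at replication forks. Its messenger RNA was followed with the single probe set that the platform annotation assigns to this gene alone, 1 of 13356 genes that could be named and tested. Values are log2 expression, so a difference of 1 is a doubling. Levels are compared between arrays for this probe set, not with other genes. This takes the arrays to share a scale, and whether they were processed jointly is not given in the sources. Each of 44 Affymetrix arrays held RNA pooled from about 30 to 40 whole Arabidopsis thaliana seedlings, with 2 arrays in each of 22 groups. The irradiated groups were atm-1, which carries a mutation in the gene for the ATM kinase of the double-strand break response, and WT. They received 30 Gy of HZE (accelerated iron nuclei) or 100 Gy of gamma rays. RNA of both genotypes was taken 1.5, 6, 12 and 24 h after irradiation, and that of WT also after 3 h. Unirradiated atm-1 and WT seedlings were sampled on day 1 at 10:45 am, when they were 5 days old, and on day 2 at 9:15 am, when they were 6 days old. Seedlings of the 24 h groups were also 6 days old and all others 5 days old. Nothing in the labels ties the replicates of a group to separate plantings, so the p-values measure the spread between these pools, which may be technical. HZE was delivered in 2 runs, and it is not stated which seedlings came from which run.

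The MCM complex is loaded onto replication origins before S phase by the origin recognition complex together with CDC6 and CDT1. It becomes an active helicase when CDC45 and the GINS complex join it, and DNA polymerase alpha with its primase then starts each new strand. In Arabidopsis, PRL is known for its expression in dividing cells and for its requirement in the embryo sac and the embryo. In RNA from whole seedlings, fewer dividing cells and less PRL RNA per dividing cell cannot be told apart.

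PRL spanned log2 6.59 to 8.32 over the 44 arrays, with a median of 7.25. Group means spanned log2 1.66, a 3.16-fold range, which was wider than the span of 82.5% of genes. The median SD within a group was 0.093 (n = 2), and the largest was 0.34, in unirradiated atm-1 of day 2. The replicates therefore lay close together relative to the differences between groups.

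The highest group was atm-1 at 6 h after HZE, with log2 8.31 and 8.32 on its 2 arrays. Unirradiated WT of day 1 came next with 8.08 and 8.00, followed by WT at 24 h after gamma with 8.05 and 7.86. The atm-1 seedlings at 12 h after gamma (7.84 and 8.01) and unirradiated atm-1 of day 1 (7.84 and 7.85) completed the upper set. At the low end stood WT at 1.5 h after HZE with 6.59 and 6.72, WT at 1.5 h after gamma with 6.79 and 6.71, and WT at 3 h after HZE with 6.77 and 6.75. Of the 21 pairs of neighbours in the order of group means, 19 had overlapping replicates. The 2 gaps without overlap lay between atm-1 HZE 6 h and WT control day 1, where the means differed by log2 0.27, and between atm-1 control day 1 and atm-1 gamma 6 h, where they differed by 0.28. Within the ranks from 2 to 5, and again within those from 6 to 22, each group overlapped its neighbours.

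**Figure D1:**
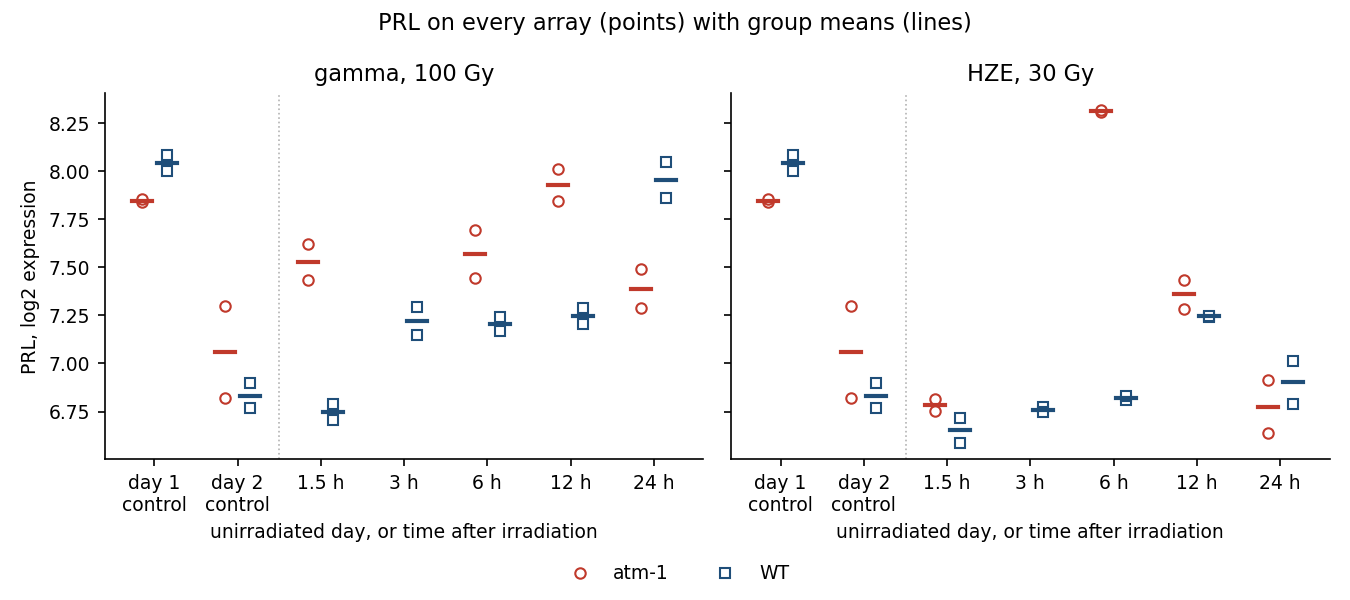
PRL log2 expression (vertical axis) on each array (open points) with the group mean (line), for atm-1 and WT, by unirradiated day or hours after gamma (left) or HZE (right). The controls are the same arrays in both panels; the 2 atm-1 arrays at 6 h after HZE (8.31 and 8.32) lie above all other arrays, and WT at that time stands at 6.81 and 6.83.

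In unirradiated seedlings PRL was lower on day 2 than on day 1, and no difference between the genotypes was called. In atm-1, PRL stood at log2 6.82 and 7.30 on day 2, against 7.84 and 7.85 on day 1. In WT it stood at 6.90 and 6.77 on day 2, against 8.08 and 8.00 on day 1. All 4 arrays of day 2 were below all 4 of day 1, by a mean of log2 -0.998 (SE 0.088, adjusted p 2.95e-10), a comparison in which 27.5% of genes were called. Called means an adjusted p under 0.05 in limma's moderated test with Benjamini-Hochberg adjustment over all genes. The difference was log2 -0.79 in atm-1 and -1.21 in WT (SE 0.12 each), with 17.8% and 20.1% of genes called. Each SE rests on the spread pooled over all 22 groups, and unirradiated atm-1 of day 2 had a wider one (SD 0.34). Leaving out 1 array at a time gave -1.03 to -0.55 in atm-1 and -1.28 to -1.14 in WT. Day, seedling age and a clock difference of 90 minutes go together here and cannot be told apart. Unirradiated atm-1 differed from WT by log2 0.015 over both days (95% confidence interval -0.16 to 0.19, adjusted p 0.972), where 1.29% of genes were called. On day 1 alone the difference was -0.20 (adjusted p 0.479) and on day 2 alone 0.23 (adjusted p 0.712).

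With controls this far apart, the changes from control given below depend on the control day. Day 1 controls, used up to 12 h, were closest in clock time to gamma 1.5 h (10:10 am) and gamma 3 h (11:40 am). Day 2 controls, used at 24 h, were closest to gamma 24 h (8:40 am). The remaining irradiated groups were taken more than 3 h from the clock time of their control, between 1:09 pm and 1:09 am, so radiation and time of day go together in them.

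**Figure D2:**
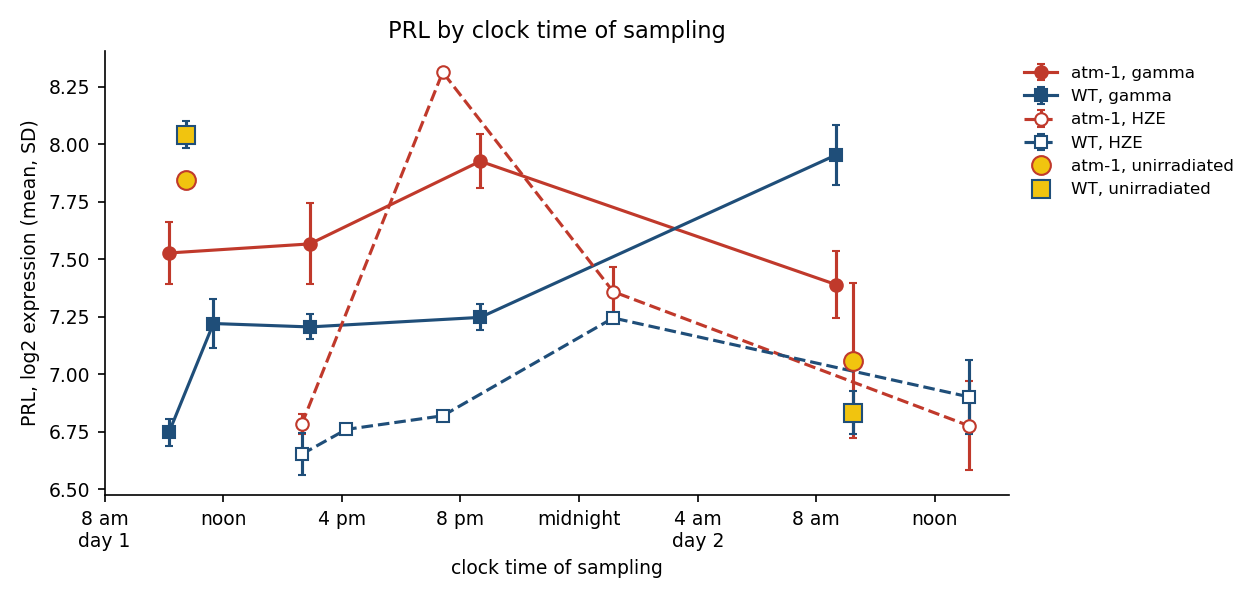
Mean PRL log2 expression with SD (vertical axis, n = 2 arrays) against the clock time of sampling (horizontal axis) for atm-1 and WT after gamma (filled, solid lines), after HZE (open, dashed lines) and unirradiated (yellow). Unirradiated seedlings were sampled only in the 2 mornings, and atm-1 and WT are farthest apart at 7:24 pm on day 1, 6 h after HZE.

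After gamma rays, PRL in WT stood lower than in unirradiated seedlings of day 1 from 1.5 to 12 h and was higher than in those of day 2 at 24 h. At 1.5 h the level was log2 6.79 and 6.71, against 8.08 and 8.00 in the control. This change of log2 -1.30 (SE 0.12, adjusted p 2.73e-09), 2.45-fold lower, was among the 91 most negative of all genes, and 17.1% of genes were called. The change after 3 h was log2 -0.82 (arrays 7.30 and 7.15). It was -0.84 after 6 h (arrays 7.24 and 7.17) and -0.79 after 12 h (arrays 7.29 and 7.21), each with SE 0.12. All 3 were called, with adjusted p 1.09e-05, 4.55e-06 and 7.76e-06, in comparisons in which 16.4%, 25.8% and 28.3% of genes were. None of the 8 irradiated WT arrays of these times reached either control array of day 1.

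At 24 h after gamma, PRL in WT had 8.05 and 7.86, against 6.90 and 6.77 in the unirradiated seedlings of the same age taken 35 minutes later on the clock. The rise was log2 1.12 (SE 0.12, adjusted p 1.54e-08), 2.17-fold, and the groups did not overlap. It exceeded that of 97.6% of genes, in a comparison in which 31.6% of genes were called. Set against the day 1 control instead, PRL at 24 h was at -0.088 (adjusted p 0.704), so its level was near that of unirradiated seedlings of the day before. With day 2 controls, the change at 1.5 h was -0.086 (adjusted p 0.672), and at 3, 6 and 12 h it was 0.39, 0.37 and 0.41, all called higher (adjusted p 0.0196, 0.0282 and 0.0103).

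In atm-1, 1 of the 4 changes after gamma was called, the rise at 24 h. PRL had 7.43 and 7.62 at 1.5 h, against 7.84 and 7.85 in the control of day 1, a change of log2 -0.32 (SE 0.12) that was not called (adjusted p 0.159, 5.59% of genes called). The changes at 6 h (7.44 and 7.69, log2 -0.28, adjusted p 0.109, 23% of genes called) and 12 h (7.84 and 8.01, log2 0.080, adjusted p 0.735, 23.5% of genes called) were not called either. Without atm-1 gamma 6 h replicate 2 the 6 h change was -0.40 and was called (adjusted p 0.0381). At 24 h it had 7.29 and 7.49 in irradiated atm-1, against 6.82 and 7.30 in its control of day 2. That rise of 0.33 was called (adjusted p 0.0453, 27.5% of genes called), although the replicates overlapped, and the call ended without atm-1 gamma 24 h replicate 2 (0.23, adjusted p 0.329) and without atm-1 control day 2 replicate 1 (0.092, adjusted p 0.698). With the controls of the other day the changes were 0.47, 0.51, 0.87 and -0.46 at 1.5, 6, 12 and 24 h, all called.

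**Figure D3:**
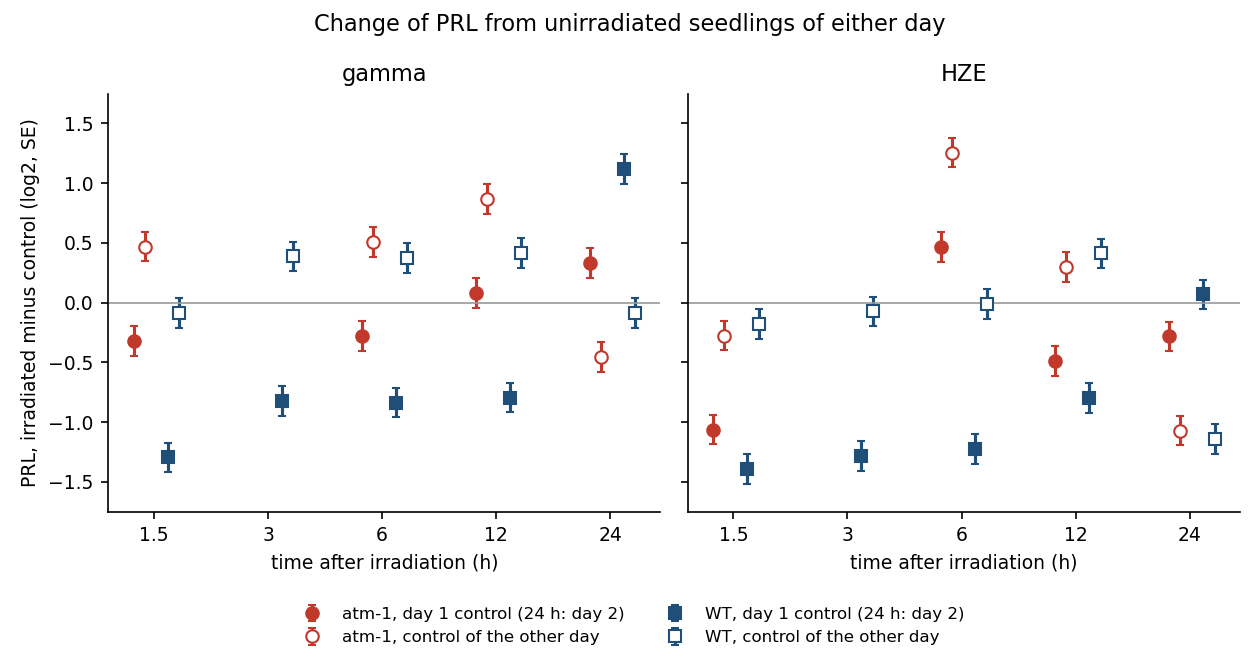
Change in PRL (log2, irradiated minus control, with SE; vertical axis) by hours after gamma (left) and HZE (right) in atm-1 (circles) and WT (squares). Filled points use day 1 controls up to 12 h and day 2 controls at 24 h, open points the other day; WT at 1.5 h after gamma is at -1.30 or -0.086 depending on the control.

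After HZE, PRL was lower than in day 1 controls at 1.5 h in both genotypes, and the genotypes differed at 6 h, with no difference called at 12 or 24 h. In WT the arrays of 1.5 h read 6.59 and 6.72, those of 3 h 6.77 and 6.75, those of 6 h 6.81 and 6.83, and those of 12 h 7.24 and 7.25, all below 8.08 and 8.00 in the control. The changes were log2 -1.39, -1.28, -1.22 and -0.80 (SE 0.12 each), with adjusted p 7.7e-11, 2.81e-10, 2.33e-09 and 6.64e-06. Against day 2 controls they were -0.18, -0.073, -0.014 and 0.41, of which the last was called. In the comparisons with day 1, 41.6%, 45.6%, 31.6% and 29% of genes were called. At 24 h PRL had 7.01 and 6.79 in WT, against 6.90 and 6.77 in the control of day 2, a difference of 0.068 (95% confidence interval -0.19 to 0.32, adjusted p 0.884, 3.59% of genes called). Against day 1 the same level was lower by log2 -1.14 (adjusted p 2.47e-08).

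In atm-1, PRL had 6.75 and 6.81 at 1.5 h after HZE, against 7.84 and 7.85 in the control (log2 -1.06, SE 0.12, adjusted p 2.44e-08, 36.8% of genes called). At 6 h it had 8.31 and 8.32, above both control arrays (log2 0.47, SE 0.12, adjusted p 0.00512, 23.3% of genes called). At 1.5 h the change was -0.27 against the control of day 2 and was not called (adjusted p 0.105), while the rise at 6 h held against the control of day 2 as well, at log2 1.26. At 12 h the level was 7.43 and 7.28 (log2 -0.49, adjusted p 0.00466, 18.3% of genes called), a call that ended without atm-1 HZE 12 h replicate 2 (-0.41, adjusted p 0.0801) and turned to 0.30 (adjusted p 0.0868) against the control of day 2. At 24 h the arrays read 6.91 and 6.64, against 6.82 and 7.30 in the control of day 2 (log2 -0.28, adjusted p 0.405, 1.55% of genes called). Without atm-1 control day 2 replicate 1 this change was -0.52 and was called (adjusted p 0.0381), and against the control of day 1 it was -1.07 (adjusted p 1.05e-07).

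The genotypes can also be compared directly at each time after each radiation, since seedlings of both were taken at 1 clock time and no control enters. At 6 h after HZE, PRL had 8.31 and 8.32 in atm-1, against 6.81 and 6.83 in WT. The difference of log2 1.49 (SE 0.12, adjusted p 2.54e-10), 2.82-fold, ranked 16 from the top among 13356 genes, of which 8.58% were called. At 1.5 h after HZE, atm-1 had 6.75 and 6.81 and WT had 6.59 and 6.72, a difference of 0.13 (95% confidence interval -0.12 to 0.38, adjusted p 0.79, 4.16% of genes called). The genotypes overlapped at 24 h after HZE (log2 -0.13, adjusted p 0.763, 2.59% of genes called), and at 12 h they did not overlap but the difference was 0.11 (adjusted p 0.728, 8.73% of genes called).

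After gamma, PRL was higher in atm-1 at 1.5 and 12 h and lower at 24 h. At 1.5 h it had 7.43 and 7.62 in atm-1, against 6.79 and 6.71 in WT (log2 0.78, SE 0.12, adjusted p 3.77e-05, 8.96% of genes called). At 12 h it had 7.84 and 8.01 in atm-1, against 7.29 and 7.21 in WT (log2 0.68, adjusted p 0.000675, 3.15% of genes called). At 6 h the values were 7.44 and 7.69 in atm-1 and 7.24 and 7.17 in WT, a difference of 0.36 that missed the threshold (adjusted p 0.0544, 11.7% of genes called). One of those atm-1 arrays, replicate 1, had the lowest median of the series, and once each array was centred on its median the difference was 0.48 (adjusted p 0.00755). It stayed uncalled in 7 of the 11 alternatives run for it, and leaving out 1 array at a time gave 0.24 to 0.49. At 24 h the order was turned, with 7.29 and 7.49 in atm-1 and 8.05 and 7.86 in WT (log2 -0.56, SE 0.12, adjusted p 0.00588, 3.83% of genes called). This call ended without WT gamma 24 h replicate 1 (-0.47, adjusted p 0.194) or atm-1 gamma 24 h replicate 1 (-0.46, adjusted p 0.174).

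**Figure D4:**
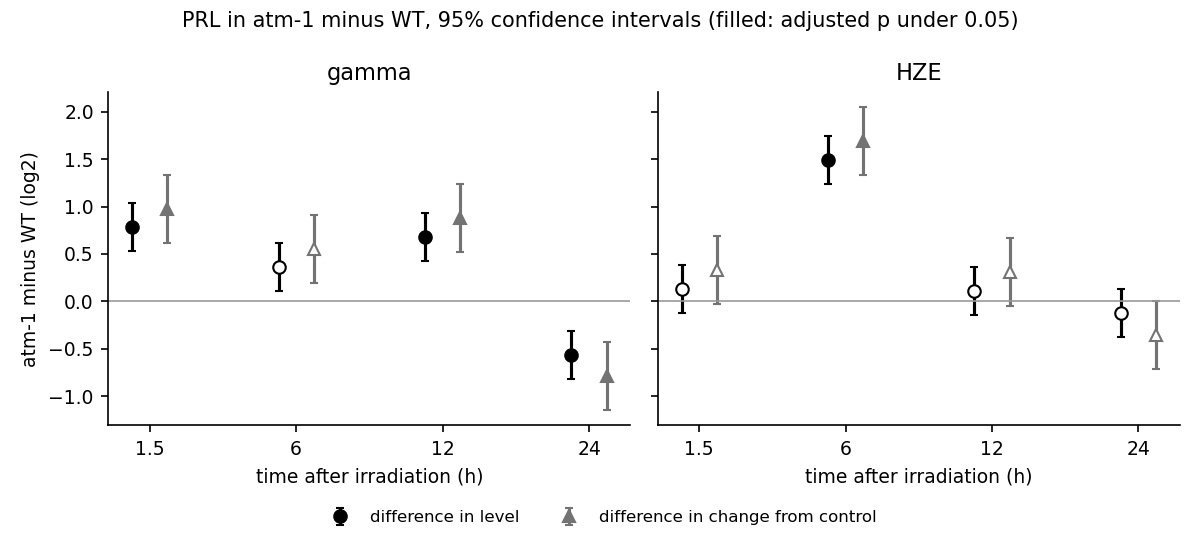
PRL in atm-1 minus WT (log2 with 95% confidence interval, vertical axis) by hours after gamma (left) and HZE (right), as the difference in level (circles) and as the difference in change from the unirradiated seedlings of each genotype (triangles). Filled symbols have an adjusted p under 0.05; the difference in level is 1.49 at 6 h after HZE and -0.56 at 24 h after gamma.

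With each genotype first set against its own control, the change in atm-1 minus the change in WT gave the same directions. It was log2 1.69 at 6 h after HZE (SE 0.18, adjusted p 7.69e-08, 5.9% of genes called), the 14th most positive of all genes. After gamma it was 0.98 at 1.5 h (adjusted p 0.000463, 5.65% of genes called), 0.56 at 6 h (adjusted p 0.0534, 6.18% of genes called), 0.87 at 12 h (adjusted p 0.00577, 1.28% of genes called) and -0.79 at 24 h (adjusted p 0.0488, 0.202% of genes called). Without atm-1 gamma 6 h replicate 1 the difference at 6 h was 0.68 and was called (adjusted p 0.0499). The call at 12 h ended without atm-1 gamma 12 h replicate 2 (0.79, adjusted p 0.0557). At 24 h it ended without either gamma replicate 1, of WT (-0.70) or of atm-1 (-0.69), and without replicate 2 of the day 2 control of WT (-0.72) or of atm-1 (-0.55). With a replicate block its adjusted p was 0.0512. With the controls of the other day, the gamma differences were 0.56 at 1.5 h (adjusted p 0.0672), 0.45 at 12 h (adjusted p 0.361) and -0.37 at 24 h (adjusted p 0.374), and that at 6 h was 0.14 (adjusted p 0.761), while that at 6 h after HZE was 1.27 and remained called. At 1.5, 12 and 24 h after HZE the differences were 0.33, 0.31 and -0.35, none of them called (adjusted p 0.44, 0.436 and 0.671; 2.68%, 4.69% and 0.127% of genes called).

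HZE and gamma were compared directly, at unequal doses and, for the same time after irradiation, at different clock times. At 24 h PRL was lower after HZE in both genotypes. In atm-1 the arrays had 6.91 and 6.64 after HZE, against 7.29 and 7.49 after gamma (log2 -0.61, adjusted p 0.000227, 28.6% of genes called). In WT they had 7.01 and 6.79 after HZE, against 8.05 and 7.86 after gamma (log2 -1.05, adjusted p 5.25e-08, 31.7% of genes called). At 6 h the genotypes went opposite ways. PRL was higher after HZE than after gamma in atm-1 (log2 0.75, adjusted p 2.82e-05, 25.8% of genes called) and lower in WT (-0.39, adjusted p 0.0213, 22.9% of genes called). The WT call ended when any 1 of its 4 arrays was left out (values -0.42 to -0.35). In atm-1 PRL was lower after HZE at 1.5 h (-0.74, adjusted p 9.61e-06, 38.9% of genes called) and at 12 h (-0.57, adjusted p 0.00318, 6.38% of genes called). The 12 h call ended without replicate 2 of either atm-1 group (-0.48 without that of gamma, -0.49 without that of HZE). In WT it was lower after HZE at 3 h (-0.46, adjusted p 0.00268, 42.1% of genes called) and not called at 1.5 h (-0.094, adjusted p 0.612, 41.5% of genes called) or 12 h (-0.0026, 95% confidence interval -0.26 to 0.25, 18.7% of genes called).

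Groups taken at nearly the same clock time differed as well. At 2:39 pm, 1.5 h after HZE, PRL was lower than at 2:55 pm, 6 h after gamma, by log2 -0.78 in atm-1 (adjusted p 4.44e-06, 39.9% of genes called) and by -0.55 in WT (adjusted p 0.000468, 39.4% of genes called). At 7:24 pm, 6 h after HZE, compared with 8:40 pm, 12 h after gamma, PRL was higher in atm-1 (log2 0.39, adjusted p 0.0239, 19.6% of genes called) and lower in WT (-0.43, adjusted p 0.0106, 22.8% of genes called). The evening calls ended when single arrays were left out: in atm-1 without either HZE replicate or gamma 12 h replicate 1 (0.30 to 0.39), and in WT without HZE 6 h replicate 1 or gamma 12 h replicate 1 (-0.42 and -0.39).

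The 24 h and 1.5 h groups of each radiation were sampled within 90 minutes of the same clock time on successive days. After gamma, PRL in WT was higher at 24 h than at 1.5 h by log2 1.21 (SE 0.12, adjusted p 2.07e-08, 12.1% of genes called), with 8.05 and 7.86 against 6.79 and 6.71. In unirradiated WT over the same 2 mornings it had moved the other way, as given above. In atm-1 after gamma the difference was -0.14 (95% confidence interval -0.39 to 0.12, adjusted p 0.58, 11.1% of genes called). After HZE it was -0.0081 in atm-1 (adjusted p 0.979, 27% of genes called) and 0.25 in WT (95% confidence interval -0.0043 to 0.50, adjusted p 0.137, 32% of genes called).

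Other replication genes were taken from lists of loci for the helicase and its partners, origin licensing and the replication fork. PRL was the only one of the 6 MCM2-7 loci with a probe set named for 1 gene here, and 7 other replication genes of 51 listed were measured. They were PSF2 of the GINS complex, ICU2 (the catalytic subunit of DNA polymerase alpha), POLA3 of its primase, POLD3 of DNA polymerase delta, and the loci AT1G07270, AT5G26680 and AT3G42660, to which the platform annotation and the RefSeq gene table give no symbol other than the locus code. In seedlings taken 6 h after HZE, 4 of the 7 were higher in atm-1 than in WT and 0 lower, with a median difference of log2 0.73 against 0.035 over all genes, of which 4.02% were called higher. POLA3 had 7.56 and 7.55 in atm-1, against 6.24 and 6.33 in WT (log2 1.26, SE 0.13). ICU2 had 6.64 and 6.43 in atm-1 and 5.49 and 5.35 in WT (log2 1.11), and AT3G42660 had 6.63 and 6.90 in atm-1 and 5.60 and 5.94 in WT (log2 1.00). PSF2 was higher by 0.73, and AT5G26680 was at -0.14 and not called. In the difference in change at that time 3 of the 7 were higher (median log2 0.53, 5.9% of all genes called either way). After gamma, 2 of the 7 were higher in level in atm-1 at 1.5 h and 2 at 12 h (4.46% and 2.02% of all genes called higher). The difference in change was higher for 1 of the 7 at 1.5 h (median 0.029, 3.24% called higher) and 1 at 12 h (median 0.27, 1.28% called either way).

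At 24 h after gamma in WT, 6 of the 7 were higher than in day 2 controls, with a median of log2 0.74 against -0.0036 over all genes, of which 14.1% were called higher. POLA3 rose by 1.51, PSF2 by 0.89, ICU2 by 0.79, POLD3 by 0.74 and AT3G42660 by 0.58. AT1G07270 rose by 0.55, at a low level of log2 3.43 to 4.33 over all arrays, below the lowest array median of 5.73. In atm-1 at that time 2 of the 7 were higher (12.8% of all genes called higher), POLA3 by 0.41 and ICU2 by 0.37, and the genotypes differed in the change of POLA3 (log2 -1.10, adjusted p 0.00287) and PSF2 (-0.93, adjusted p 0.0322). Single arrays decided these counts in atm-1, with 0 called higher without atm-1 gamma 24 h replicate 2 or atm-1 control day 2 replicate 1, and 0 differing in change without atm-1 gamma 24 h replicate 1. Leaving out atm-1 gamma 24 h replicate 2, atm-1 control day 2 replicate 1, WT control day 2 replicate 2 or either array of WT gamma 24 h left 1 difference in change, and leaving out atm-1 control day 2 replicate 2 left 1 gene called higher. At 1.5 h after gamma in WT, ICU2 was lower by log2 -1.13 and POLA3 by -0.54, and the other 5 were not called, where 8.84% of all genes were called lower. Leaving out replicate 1 of the irradiated WT seedlings, or replicate 1 of their controls, left 1 of these calls. At 3, 6 and 12 h after gamma in WT, where PRL was lower at each time, 0, 2 and 1 of the 7 were lower, with medians of log2 -0.081, -0.053 and 0.0083. All genes were called lower at 9.13%, 14% and 14.7% at these times. POLA3 was at -0.12, -0.053 and 0.0083 and was not called at any of them. The count at 6 h was 1 without either array of WT gamma 6 h or without WT control day 1 replicate 2. After HZE in WT, 5, 4 and 2 of the 7 were lower at 1.5, 3 and 6 h, against 20.6%, 22.2% and 17.5% of all genes. At 12 h after HZE in WT 1 was lower (29% of all genes called either way). At 24 h after HZE in WT, where PRL was not called, 2 were higher (median log2 0.066, 3.59% of all genes called either way). In atm-1 at 1.5 h after HZE, 6 of the 7 were lower (median log2 -0.49, 36.8% of all genes called either way), and at 6 h 3 were higher (23.3% called either way). In day 2 controls 6 of the 7 stood below day 1 over both genotypes (median log2 -0.35 against 0.016, 12.8% of genes called lower), so the changes from control of these genes also depend on the day.

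The Aurora kinases AUR1, AUR2 and AUR3, which act in mitosis, were lower at some times when PRL was lower and parted from it at others. In WT, 2, 3, 3 and 3 of them were lower than in day 1 controls at 1.5, 3, 6 and 12 h after gamma. All genes were called lower at 8.84%, 9.13%, 14% and 14.7% at these times. At 1.5, 3 and 6 h after HZE in WT, 2, 2 and 3 were lower, against 20.6%, 22.2% and 17.5% of all genes. At 24 h after gamma in WT, where PRL rose by 1.12, 0 of the 3 were called (31.6% of all genes called either way). At 6 h after HZE in atm-1, where PRL rose by 0.47, 2 were lower (median log2 -2.10, 23.3% called either way). In atm-1 at 1.5 and 6 h after gamma, where PRL was not called, 2 were lower each time (5.59% and 23% called either way). At 24 h after HZE in WT, where PRL was at 0.068, 2 were lower (3.59% called either way). At 1.5 h after gamma, 2 of 3 were higher in atm-1 than in WT (4.46% of all genes called higher). The difference in change at that time was called for 0 of the 3 (median log2 0.38, 3.24% of all genes called higher), while PRL was called at 0.98. At 6 h after HZE, when PRL separated the genotypes, AUR1 had 5.57 and 5.63 in atm-1 and 5.56 and 5.39 in WT (log2 0.12, adjusted p 0.827), and 0 of the 3 differed between the genotypes in limma's test, adjusted or at an unadjusted p under 0.05. At 12 h after HZE, when PRL differed by 0.11, AUR1 had 8.02 and 7.48 in atm-1 and 6.25 and 6.02 in WT (log2 1.61), and 3 of 3 were higher in atm-1 (4.33% of all genes called higher). At 12 h after gamma both PRL and 3 of 3 Aurora kinases were higher in atm-1 (2.02% of all genes called higher), with AUR1 at 7.38 and 7.31, against 5.89 and 5.97 in WT. In the difference in change there, 2 of the 3 were higher (1.28% of all genes called either way). The difference between PRL and the Aurora kinases was not itself tested.

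**Figure D5:**
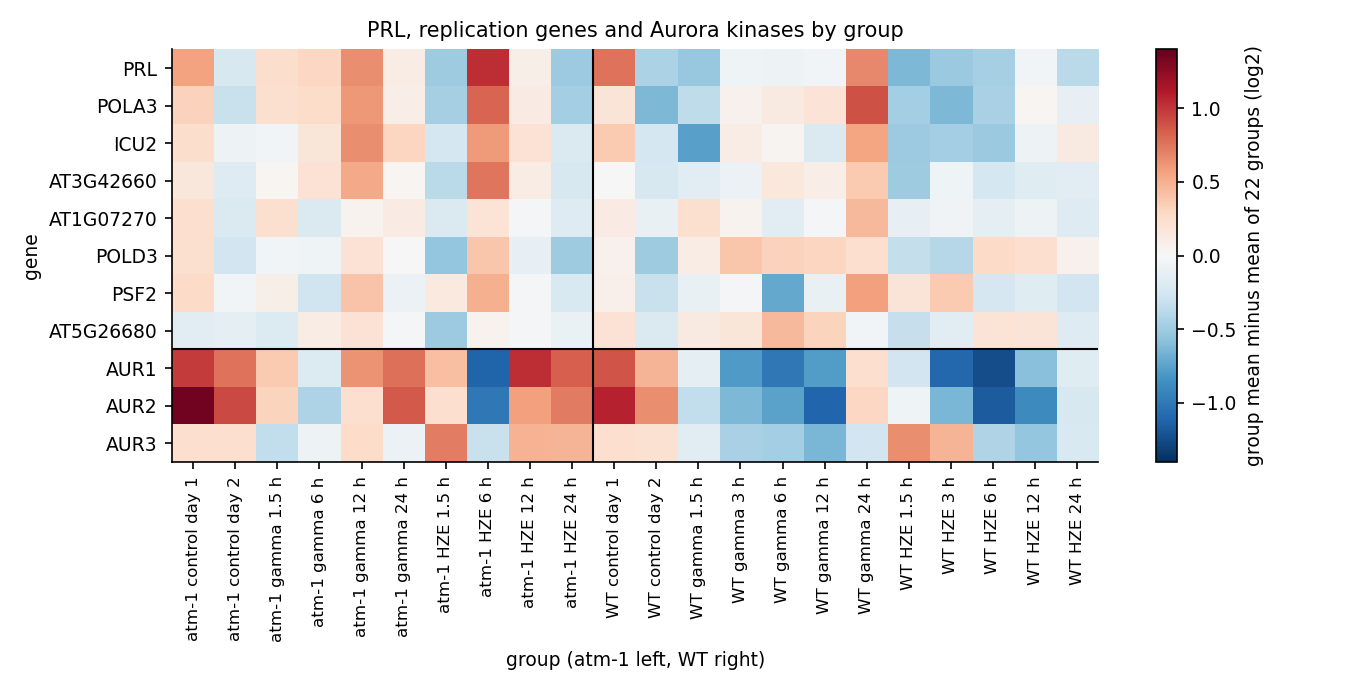
Group means of PRL, the 7 other measured replication genes and the 3 Aurora kinases (rows), each minus its mean over the 22 groups (colour, log2), with atm-1 groups left of the vertical line and WT groups right of it. PRL, POLA3, ICU2 and AT3G42660 have their 3 highest irradiated group means in atm-1 at 6 h after HZE, in atm-1 at 12 h after gamma and in WT at 24 h after gamma, while AUR1 and AUR2 are low in both genotypes at 6 h after HZE.

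Among 5230 genes whose group means spanned at least log2 1, those with the pattern most like PRL over the 22 group means were POLA3 (Pearson r 0.92, Spearman rho 0.92), ICU2 (r 0.88, rho 0.91) and AT3G42660 (r 0.86, rho 0.82). The next 7 were AT3G14740 (r 0.84), AT1G67750 (0.79), AT5G54970 (0.79), APS3 (0.76), AT5G38690 (0.74), AT2G19780 (0.73) and AT5G27330 (0.73). APS3 encodes an ATP sulfurylase of sulfate assimilation, and the other 6 are known here by locus only. Over all 13355 other genes the median r was -0.060, 7 exceeded 0.8 and 1 lay below -0.8. For POLA3, r was 0.99 over the 10 atm-1 groups and 0.86 over the 12 WT groups. The points share seedling pools, control arrays and clock times between genes, so r is a description of these groups. Of the other listed genes, AT1G07270 stood at r 0.62, POLD3 at 0.57, PSF2 at 0.48, AT5G26680 at 0.33, AUR1 at 0.18, AUR2 at 0.17 and AUR3 at -0.25. For AUR1, r was 0.47 over the WT groups and -0.54 over the atm-1 groups. For AUR2 these were 0.43 and -0.45, and for AUR3 -0.25 and -0.65.

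Genes with the most opposed pattern among the 5230 were AT3G03020 (r -0.79), AT3G18295 (-0.78), AT3G61010 (-0.77), AT1G28410 (-0.76) and AT1G02890 (-0.76). The DNA ligase gene ATLIG4, of end joining and the only measured member of 12 listed damage response loci, stood at r -0.66 (rho -0.79). It was higher at 1.5 h after HZE in WT by log2 1.18 and was not called in atm-1 (0.38), and the change differed between the genotypes (-0.80). ATMND1, a recombination gene that was called higher in WT at all 5 times after each radiation, stood at r -0.40. In atm-1 it was called higher at all 4 times after gamma (log2 0.86 to 1.31) and at 6, 12 and 24 h after HZE (0.86 to 1.08), but not at 1.5 h (0.17), and at 6 h after HZE it was lower in atm-1 than in WT by log2 -1.98.

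Array medians ran from log2 5.73 to 5.98, and replicates correlated at 0.990 to 0.997 across probe sets. All arrays of 1.5 and 3 h after HZE had medians of 5.82 to 5.83. The other arrays, except atm-1 gamma 6 h replicate 1, had 5.90 or more. Centring each array on its median moved the PRL mean of 5 of the 22 groups by at least that group's SD. Cyclic loess did so in 3 groups. HZE minus gamma for PRL in WT at 3 h ran from -0.54 to -0.36 over 11 alternatives and stayed called in all of them. Neither ATM nor any of the 8 listed green tissue markers had a probe set named for a single gene here, so the mutated gene was not checked. Of root markers 3 of 8 were measured, with PYK10 at 11.59 to 13.28, EXPA18 at 4.42 to 5.98 and EXPA7 at 5.01 to 6.36 over all arrays. The stem cell signal CLV3, the only measured shoot meristem marker of 3, ran from 3.57 to 4.20. In WT at 1.5 h after gamma, EXPA18 and EXPA7 were lower by log2 -0.73 and -0.83 while PYK10 was not called (-0.22), where 8.84% of all genes were called lower. At 3 h after gamma in WT EXPA18 and EXPA7 were lower again, by -0.63 and -0.82 (9.13% of all genes called lower), and at 6 and 12 h PYK10 was higher by 0.30 and 0.65. At 1.5, 3 and 6 h after HZE in WT all 3 were lower (medians -0.996, -0.90 and -0.58), where 20.6%, 22.2% and 17.5% of all genes were. In unirradiated seedlings of day 1, EXPA18 stood at a mean of 4.96 in atm-1 and 5.71 in WT, and EXPA7 at 5.40 and 6.19. Of the 3 markers, 1 was called lower in atm-1 there (2.02% of all genes called either way). These control means enter the difference in change at 1.5 h after gamma, where PRL was at 0.98. In it EXPA18 and EXPA7 were higher by 1.26 and 1.12 (3.24% of all genes called higher), and PYK10 was not called (0.28). In the difference in level at that time EXPA18 alone was called, higher by 0.51 (4.46% of all genes called higher), and at 12 h after gamma EXPA18 alone was called, lower by -0.55 (1.13% of all genes called lower). Between atm-1 and WT at 6 h after HZE, 0 of the 3 were called by limma (EXPA18 -0.18, EXPA7 -0.18, PYK10 0.26), and 1, PYK10, had an unadjusted p under 0.05. The part of root tissue in the PRL values was not tested.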

How the data were processed

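Values are the log2 expression per probe set that the authors deposited for 44 arrays. They come from GCOS 1.2 and from RMA (affy), per the submitters' processing notes; how RMA was set, and whether the arrays were processed jointly, are not given in the sources used here. The deposited values were used without further scaling. Of 22810 probe sets, 64 were controls and were dropped, 13513 named 1 gene in the platform annotation, 503 named several and 8730 none. Gene IDs were looked up in the RefSeq gene table (TAIR10.1, names only), where 13436 of the 13513 matched and the others kept the annotation's name. The probe set with the highest mean was kept for 146 genes with several, so the 13513 probe sets gave 13356 genes. PRL has 1 probe set.

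A linear model with 1 mean per group was fitted to the whole gene table (limma 3.58.1, R 4.3.3; lmFit, contrasts.fit and eBayes; 22 residual and 7.82 prior degrees of freedom). Calls are genes under 0.05 after Benjamini-Hochberg adjustment across the 13356 genes of a comparison. The number of arrays limits the precision. The model was tested on simulated data. PRL, the gene lists and the tests were chosen with earlier results of these data known, and the direct genotype differences in level and the control of the other day were added after seeing the values. Named genes were PRL, all measured helicase, partner and licensing genes, up to 4 per other list by correlation with PRL, the 10 most and 5 least correlated genes, and AUR1 and ATMND1; AT5G26680 was added outside that rule. Replicates share numbers across groups, and over 231 pairs of groups the deviations of same-numbered arrays correlated at -0.17 to 0.24 (median 0.012). In 40 of these pairs the correlation exceeded 0.1. The numbers were not taken as pairs in the main fit, and a replicate block was run as an alternative. Alternatives were cyclic loess, median centring, a trended robust fit, all 22746 probe sets, brighter genes only, compared arrays only, a replicate block, other controls and leaving out each array.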

Additional observations from a re-analysis of the deposited data

Results flagged for a closer look

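The change in PRL from unirradiated seedlings differed between atm-1 and WT, by the test of the difference itself, in 4 of 8 comparisons. The change in atm-1 minus that in WT was log2 1.69 at 6 h after HZE (adjusted p 7.69e-08), where both arrays of atm-1 stood above both arrays of WT. It was 0.98 at 1.5 h after gamma (adjusted p 0.000463) and 0.87 at 12 h after gamma (adjusted p 0.00577), again with both arrays of atm-1 above both of WT. At 24 h after gamma it was -0.79 (adjusted p 0.0488), with both arrays of atm-1 below both of WT. With the control of the other day, the differences at 1.5, 12 and 24 h after gamma were not called (adjusted p 0.0672, 0.361 and 0.374). The call at 24 h after gamma held in 9 of 17 alternatives, and that at 6 h after HZE in 17 of 17. Groups of 2 arrays are too small for a check of single outlying arrays.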

How the results depend on the processing

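The difference in level at 6 h after HZE stayed called under all 11 alternatives run for it, as did those at 1.5 and 12 h after gamma, and the difference in change at 6 h after HZE under all 17. Changes from control depended on the control. With the control of the other day, chosen after seeing the data, PRL in atm-1 was at 0.47, 0.51, 0.87 and -0.46 at 1.5, 6, 12 and 24 h after gamma, and at -0.27, 0.30 and -1.07 at 1.5, 12 and 24 h after HZE. In WT it was at -0.086, 0.39, 0.37, 0.41 and -0.088 at the 5 times after gamma and at -0.18, -0.073, -0.014, 0.41 and -1.14 after HZE. The differences in change then were 0.56, 0.14, 0.45 and -0.37 at 1.5, 6, 12 and 24 h after gamma, and -0.094, -0.11 and 0.070 at 1.5, 12 and 24 h after HZE. With controls of both days, atm-1 was at 0.075, 0.11, 0.47 and -0.063 after gamma and at -0.093 and -0.68 at 12 and 24 h after HZE. Of these, only 0.47 (adjusted p 0.00101) and -0.68 (adjusted p 4.18e-05) were called. WT was then at -0.22, -0.23 and -0.19 at 3, 6 and 12 h after gamma and at -0.19 and -0.54 at 12 and 24 h after HZE. Of these WT values only -0.54 was called (adjusted p 0.000553). The difference in change at 24 h after gamma was then -0.58 and was not called (adjusted p 0.0683). At 6 h after gamma the genotypes differed, past the threshold, in change and level by 0.70 and 0.51 after cyclic loess, by 0.65 and 0.48 with centred arrays and by 0.56 and 0.36 among brighter genes. With all probe sets the difference in level there, 0.36, had an adjusted p of 0.0499. The difference in level stayed uncalled in 7 of 11 alternatives and the difference in change in 13 of 17. Loess also turned the sign of values near 0, to 0.031 for HZE minus gamma in WT at 12 h and to 0.021 for 24 h minus 1.5 h after HZE in atm-1. The rise in atm-1 at 24 h after gamma, 0.33, missed the threshold in a trended robust fit (adjusted p 0.0517) and with only the compared arrays (0.205), and the difference in change there, -0.79, did so with only the compared arrays (0.362). With a replicate block that difference had an adjusted p of 0.0512, and the block changed no other call on PRL. The cause of these shifts was not tested.

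Leaving out 1 array at a time gave 0.43 to 0.68 for the difference in change at 6 h after gamma, 0.79 to 0.96 at 12 h and -1.03 to -0.55 at 24 h, and -0.67 to -0.46 for the difference in level at 24 h after gamma and -0.26 to 0.011 at 24 h after HZE. Changes from control ran from -0.40 to -0.15, -0.0031 to 0.16 and 0.092 to 0.57 in atm-1 at 6, 12 and 24 h after gamma, from -0.56 to -0.41 and -0.52 to -0.044 in atm-1 at 12 and 24 h after HZE, and from -0.045 to 0.18 in WT at 24 h after HZE. HZE minus gamma ran from -0.65 to -0.48 in atm-1 at 12 h, and from -0.42 to -0.35 and -0.043 to 0.038 in WT at 6 and 12 h. Near the same evening hour it ran from 0.30 to 0.47 in atm-1 and from -0.47 to -0.39 in WT. The difference between 24 and 1.5 h after HZE in atm-1 ran from -0.14 to 0.13. Unirradiated atm-1 minus WT ran from -0.10 to 0.13 over both days and from -0.013 to 0.46 on day 2.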
